A study of Rattus norvegicus with 125 samples.

Results

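The medullary thick ascending limb (mTAL) is the stretch of the loop of Henle that climbs through the outer medulla of the kidney, and its expression profile is described here from all 7 libraries that the series labels as mTAL, out of 125 samples. The libraries were taken by their label alone, with no measured value, and every gene of the table was read in them. They were set against the pool of the other 98 tubule libraries, which cover 13 segments. These are S1, S2 and S3 of the proximal tubule, the short-loop descending limb (SDL), the long-loop descending limb in outer (LDLOM) and inner medulla (LDLIM), and the thin ascending limb (tAL). The others are the cortical thick ascending limb (cTAL), the distal convoluted tubule (DCT), the connecting tubule (CNT) and the cortical (CCD), outer medullary (OMCD) and inner medullary (IMCD) collecting duct.

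All groups came from adult male Sprague-Dawley rats of 200 to 250 g on normal chow, with no allele or agent named in the labels. The left kidney was perfused with collagenase, and tissue was digested for 25 min (cortex), 50 min (outer medulla) or 90 min (inner medulla) before tubules were picked by hand. Lysates went straight into a single-cell RNA-seq protocol with paired reads of 50 nt. The labels give replicate numbers without saying whether each library came from its own rat, so every p-value speaks only of how these libraries scatter, and part of that scatter may be technical. Group sizes were 7 for mTAL, S1, S2, S3, tAL, cTAL and OMCD, 10 for SDL, 9 for LDLOM, 4 for LDLIM, 8 for DCT and IMCD, 6 for CNT and 11 for CCD. In bulk pieces of tubule, fewer cells of a type and less RNA per cell cannot be told apart.

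The thick ascending limb reabsorbs sodium chloride without water and so dilutes the tubule fluid. Its luminal membrane carries the cotransporter NKCC2, encoded by Slc12a1 and blocked by furosemide, and the potassium channel ROMK (Kcnj1), while the sodium pump and chloride channels work on the blood side. The medullary part has many mitochondria and works in tissue with little oxygen, and the limb as a whole secretes uromodulin and lets calcium and magnesium pass between its cells.

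The mTAL libraries held fewer genes than those of any other segment by their median. Between 1795 and 6760 gene symbols reached 1 RPKM (reads scaled to transcript length and to mapped reads) in them, with a median of 2870, and segment medians elsewhere ran up to 6749 in CCD. Relative sequencing depth, read from the smallest steps between values, was 4.94, 5.19 and 4.76 in mTAL replicates 1, 2 and 3, and 0.654, 0.666, 0.730 and 1.14 in replicates 4, 5, 6 and 7. Pairs of mTAL libraries correlated at r = 0.496 to 0.725 over genes (Pearson, log2 scale). The profile of mTAL means was closest to that of cTAL (r = 0.898 across genes), followed by DCT (0.867), OMCD (0.849) and LDLOM (0.838), with tAL at 0.781.

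Slc12a1, Umod and Igf1, the markers taken for the segment, were all high in mTAL. Slc12a1 and Umod were high in cTAL too, so they speak for the thick limb and not for its medullary part. Igf1 was highest in mTAL, but the lists were chosen with earlier results of these data known. The medullary part of the label was thus not tested. Slc12a1 had a lowest value of 178 RPKM, a median of 347 RPKM and a highest value of 457 RPKM in the 7 mTAL libraries, against 42.4, 255 and 1212 RPKM in cTAL. No library outside cTAL reached the lowest mTAL library, and the third segment in order was DCT, with a mean of 16.0 ± 27.2 RPKM (SD, n = 8). On the log2(RPKM + 1) scale, which understates the change of low genes, Slc12a1 was 6.83 ± 0.525 higher in mTAL than in the mean of the 13 other segments (SE; limma adjusted p = 2.11e-20). Against cTAL the difference was 0.35 ± 0.716 (limma adjusted p = 0.916), so the order of the 2 leading segments was within their spread.

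Umod, which encodes uromodulin, the most abundant protein of normal urine, ran from 339 RPKM through a median of 1597 RPKM to 9269 RPKM in mTAL, against 1961, 12485 and 17802 RPKM in cTAL. Its means were 2844 ± 3032 RPKM in mTAL, 10708 ± 5978 RPKM in cTAL (n = 7 each) and 710.2 ± 572 RPKM in DCT (n = 8; SD throughout). Umod was 7.26 ± 0.799 higher in mTAL than in the 13 segments on the log2 scale (limma adjusted p = 1.17e-11). Its difference from cTAL was -2.23 ± 1.09, with 4 of 7 mTAL libraries below every cTAL library. It did not pass in the fit of all tubule libraries (limma adjusted p = 0.432) and passed when both groups were fitted alone (limma adjusted p = 2.48e-07). Because limma draws part of a gene's variance from genes of like level, the second p can understate the scatter of Umod itself. An exact two-sided permutation test over the 14 libraries gave p = 0.0111 (0.0166 adjusted over 3 such tests, all chosen after the data had been seen). Against DCT the difference of 1.81 did not pass (limma adjusted p = 0.342).

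Igf1, the growth factor IGF-1, was detected in fewer segments than the other markers. The 7 mTAL libraries held 1.54, 2.86, 7.4, 8.98, 10.2, 25.6 and 43.9 RPKM, and every one was above 1 RPKM. In cTAL the lowest, median and highest values were 0, 1.82 and 4.00 RPKM, and 4 of 7 libraries reached 1 RPKM. None of the 91 libraries of the other 12 segments did, the highest being 0.759 RPKM in OMCD. Igf1 was 3.21 ± 0.203 higher in mTAL than in the 13 segments (log2; limma adjusted p = 2.49e-26).

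**Figure D1:**
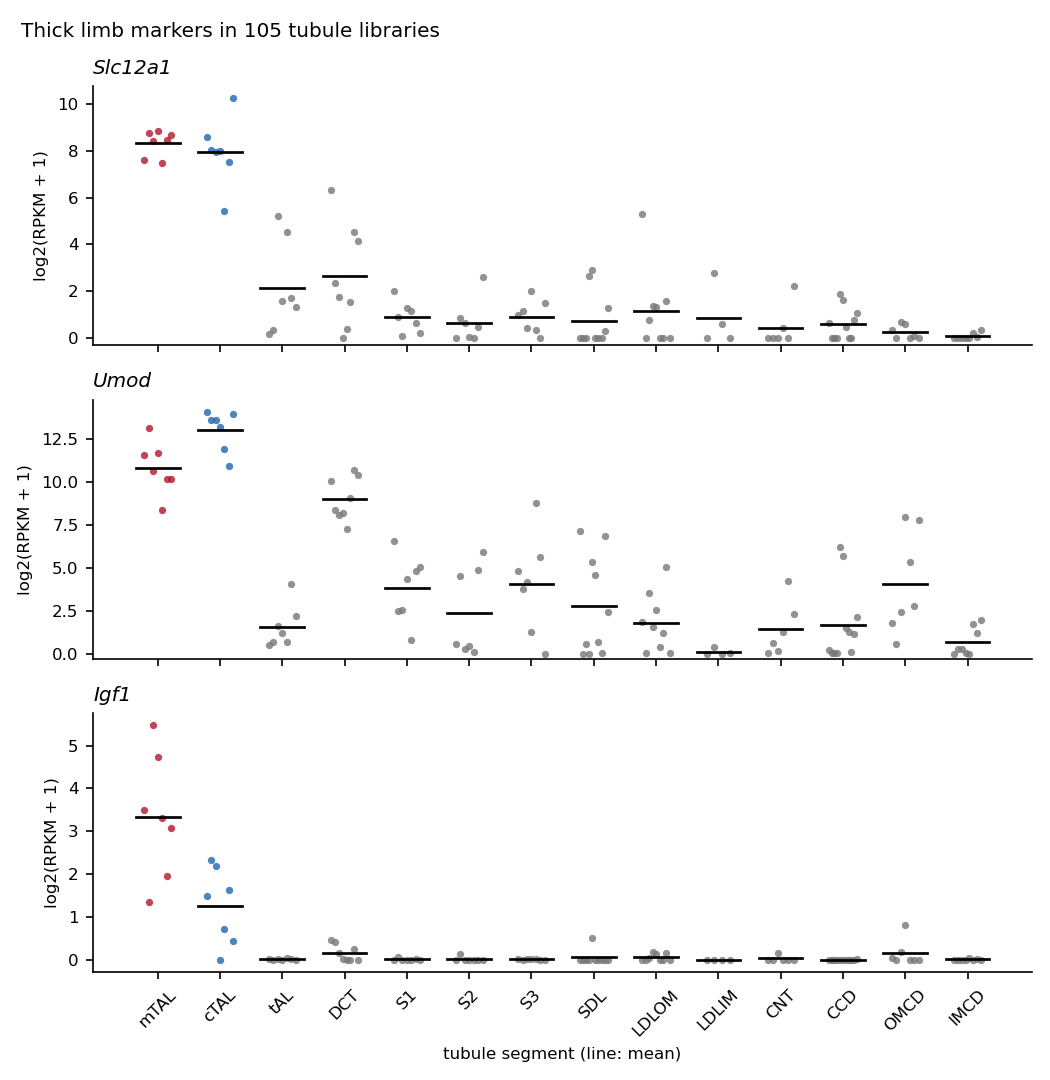
Expression of Slc12a1, Umod and Igf1 in all tubule libraries, as log2(RPKM + 1) by segment, with mTAL at the left. Points are libraries and lines are means of the log2 values. Slc12a1 and Umod are high in both thick limb parts, Umod also in DCT, and Igf1 stands above 1 RPKM in mTAL and cTAL libraries alone.

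A stricter question was which genes were above every other segment. Of 11078 tested genes, 1 (0.00903%) met a joint rule, and it was Igf1. The rule asked that the smallest of a gene's 13 differences be at least 1 on the log2 scale and that the largest of its 13 p-values, adjusted over all genes, be under 0.05. Under the same rule over the 12 segments other than cTAL, 3 genes (0.0271%) passed: Slc12a1, Igf1 and Lrrc66, a leucine-rich repeat gene. With each comparison adjusted on its own, Ppp1r1b was also called against each of the 13 segments (smallest difference 2.36, log2; joint limma adjusted p = 1), and Ppp1r1b and Smarcd3 against each of the 12. Lrrc66 was uneven, with 0, 0, 0.0709, 11.2, 17.4, 66.1 and 66.2 RPKM in the mTAL libraries against 0.117, 7.55 and 24.5 RPKM (lowest, median, highest) in cTAL. It was called at 2.55 ± 0.335 against the 13 segments (log2; limma adjusted p = 1.62e-08), though only 4 of 7 mTAL libraries lay above their mean.

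The bases before the start sites of these genes and of Umod are shown because the first 3 share a pattern over segments that Umod, also present in DCT, does not. Each run is the 250 bases before the start in the direction of transcription, from RefSeq on build GRCr8, not the build of the deposited values. Both strands were searched for TATAAA, bound by the TATA-binding protein, CCAAT, bound by NF-Y, GTTAAT, a half-site of HNF1, and AAGGTCA, a half-site of estrogen-related receptors. No matches overlapped in these runs, and capitals mark them. The Slc12a1 run is at chr3:132859409-132859658 (+ strand), that of Umod at chr1:183261017-183261266 (- strand), that of Igf1 at chr7:24172282-24172531 (+ strand) and that of Lrrc66 at chr14:34932731-34932980 (+ strand).
Slc12a1: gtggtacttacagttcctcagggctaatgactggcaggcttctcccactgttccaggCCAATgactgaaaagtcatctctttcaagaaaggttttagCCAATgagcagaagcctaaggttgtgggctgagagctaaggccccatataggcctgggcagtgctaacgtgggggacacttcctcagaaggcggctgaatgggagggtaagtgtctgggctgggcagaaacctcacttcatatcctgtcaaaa
Umod: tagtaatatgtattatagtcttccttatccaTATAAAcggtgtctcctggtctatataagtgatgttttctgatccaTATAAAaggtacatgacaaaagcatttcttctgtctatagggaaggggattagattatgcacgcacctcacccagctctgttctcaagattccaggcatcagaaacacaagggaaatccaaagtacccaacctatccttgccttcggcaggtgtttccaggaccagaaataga
Igf1: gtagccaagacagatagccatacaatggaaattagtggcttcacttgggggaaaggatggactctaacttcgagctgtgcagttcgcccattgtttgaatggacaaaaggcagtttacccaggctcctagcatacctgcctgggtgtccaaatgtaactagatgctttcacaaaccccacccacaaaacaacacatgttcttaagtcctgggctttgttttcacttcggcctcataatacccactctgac
Lrrc66: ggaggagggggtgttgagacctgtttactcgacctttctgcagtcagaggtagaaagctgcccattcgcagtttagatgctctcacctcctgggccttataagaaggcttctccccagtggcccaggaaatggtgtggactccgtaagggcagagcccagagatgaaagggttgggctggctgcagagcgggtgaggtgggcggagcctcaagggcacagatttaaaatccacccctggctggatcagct
Slc12a1, for which RefSeq lists 2 start entries and the first is shown, held 2 CCAAT matches, starting 193 and 153 bases before the start. Umod held 2 TATAAA matches, starting 219 and 173 bases before it. Igf1 and Lrrc66 held none of the 4. Among 27457 promoter windows of the same table, 34.3% held CCAAT, 13.1% TATAAA, 6.46% GTTAAT and 3.77% AAGGTCA, so the 3 genes with the shared pattern had no searched motif in common.

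Against the pool of 13 segments, 49 of 11078 tested genes (0.442%) were higher in mTAL and 129 (1.16%) were lower, at an adjusted p under 0.05 and a log2 difference of at least 1 either way. The median difference of all tested genes was -0.53, so the typical gene was lower in mTAL on the deposited scale. After quantile normalization that median was -0.08, and 203 of the 11078 genes were higher and 45 lower. All 49 higher genes were still called there and 42 of the 129 lower ones were. The share of calls that were higher was 81.9%, against 27.5% on the deposited scale. Higher calls thus rose and lower calls fell over all genes, and list counts after this normalization are to be read beside that shift. Of the 49 higher genes, 20 had their highest segment mean in mTAL, and 15 had all 7 mTAL libraries above the mean of the 13 segments. Of the 49, 3 were also higher than in cTAL and 46 were not called between the 2 thick limb parts.

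Both inhibitors of protein phosphatase 1 on the kinase list were higher in mTAL. Ppp1r1a, which encodes inhibitor 1, had 66.5, 215 and 480 RPKM (lowest, median, highest) in mTAL, against 177, 407 and 512 RPKM in cTAL, and DCT averaged 253 RPKM. It was 5.38 ± 0.573 higher in mTAL than in the 13 segments (log2; limma adjusted p = 3.14e-12), with all 7 libraries above their mean. Ppp1r1b, the related inhibitor DARPP-32, was lower in level but mTAL was its highest segment, with 2.05, 26.5 and 136 RPKM in mTAL against 0, 3.04 and 13 RPKM in cTAL. Its difference was 3.69 ± 0.465 (log2; limma adjusted p = 3.65e-09), and all 7 mTAL libraries were above the mean of the 13 segments.

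Among proteins of the tight junction, Cldn10, whose product forms a cation pore between thick limb cells, had 91.6, 325 and 469 RPKM in mTAL, against 40.1, 236 and 377 RPKM in cTAL. The highest mean was in mTAL, 273 ± 153 RPKM (SD, n = 7), and the next in tAL, 232 RPKM, so the order of these was within the spread. Cldn10 was 5.38 ± 0.727 higher than in the 13 segments (log2; limma adjusted p = 3.72e-08) and 6.27 ± 0.960 higher than in DCT (limma adjusted p = 8.91e-07). Cldn10 was the 1 member called of 19 tested tight junction genes, whose median difference was -0.38 beside -0.53 for all genes. After quantile normalization 4 of the 19 were higher, with a median of 0.14 beside -0.08 for all genes. Cldn19, a partner of claudin-16 in divalent ion passage, had a difference of 2.47 ± 0.817 that did not pass (limma adjusted p = 0.102).

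Ptger3, the EP3 receptor for prostaglandin E2, lay between 3.58 and 140.1 RPKM in mTAL with a median of 91.5 RPKM, against 20.2, 32.7 and 88.5 RPKM in cTAL and a mean of 103 RPKM in DCT. It was 3.98 ± 0.665 higher in mTAL than in the 13 segments (log2; limma adjusted p = 2.45e-05), and was the 1 gene called of 23 tested hormone and calcium receptors, 4 of which were higher after quantile normalization. Avpr2, the vasopressin V2 receptor, had a median of 14.9 RPKM in mTAL and a difference of 0.41 (limma adjusted p = 0.681). Gcgr, the glucagon receptor, had a median of 27.4 RPKM and a difference of 1.68 (limma adjusted p = 0.239), so neither passed.

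Gal3st1, which makes sulfated galactolipids, was 3.73 ± 0.718 higher (14.8, 50.2 and 360.4 RPKM in mTAL), Dnase1, a secreted nuclease, 3.57 ± 0.703 higher (44.1, 412 and 1342 RPKM), and Smarcd3, a subunit of the SWI/SNF chromatin complex, 3.46 ± 0.621 higher (0, 48.2 and 239 RPKM), all on the log2 scale against the 13 segments. Dnase1 and Gal3st1 had higher means in DCT than in mTAL, 1517 and 137 RPKM in DCT, whereas Smarcd3 was highest in mTAL. Sostdc1, a secreted inhibitor of BMP and Wnt signals, differed by 2.95 ± 0.777 (limma adjusted p = 0.0229), with mTAL libraries from 129 to 673 RPKM and its highest segment mean, 731 RPKM, in OMCD. Irx2, a homeobox gene, was the 1 higher gene of 29 tested transcription factors, at 2.58 ± 0.572 (limma adjusted p = 0.00447), while 2 were lower, Pax8 and Gata3. With quantile normalization 3 of the 29 were higher and 1 lower. The 7 mTAL values of Irx2 ran from 0 to 282 RPKM with a median of 12 RPKM, and a single library, replicate 4, held the highest.

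**Figure D2:**
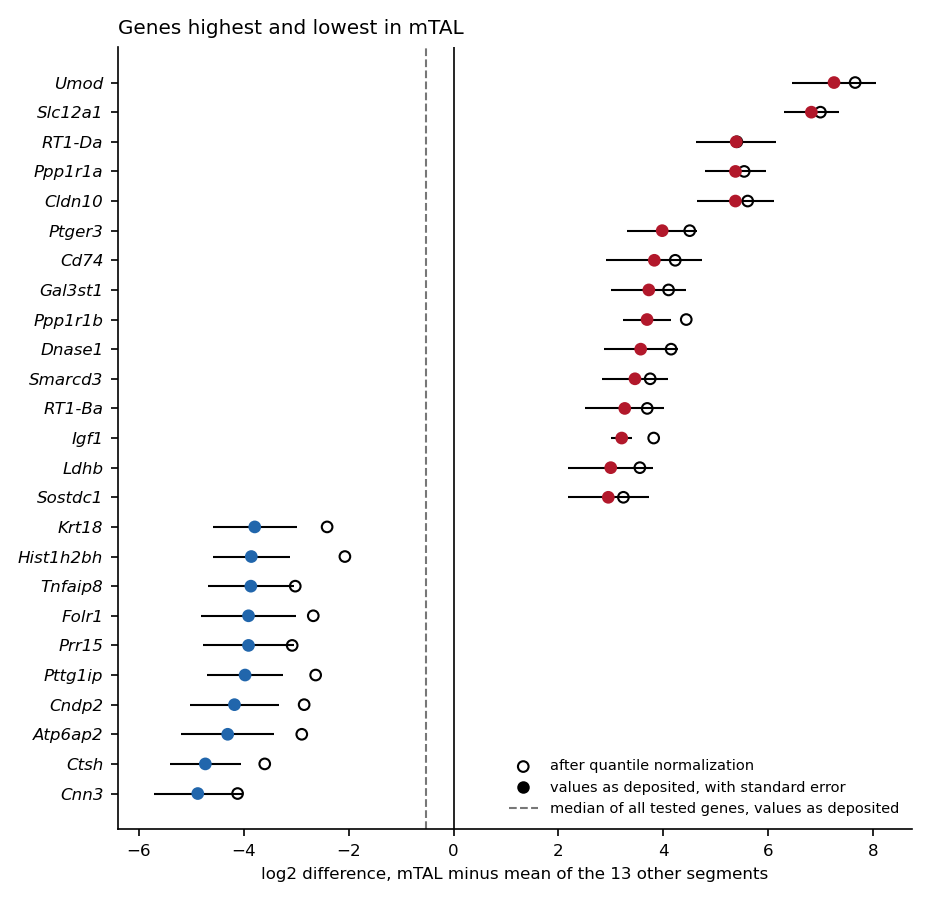
The 15 genes highest and the 10 lowest in mTAL among called genes with at least 6 of 7 mTAL libraries on the called side. Filled points are log2 differences between mTAL and the mean of the 13 other segments with their SE, open points the same after quantile normalization, and the dashed line is the median of all tested genes, -0.53. After normalization the 15 higher genes lie farther from 0 and the 10 lower ones nearer to it.

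Other salt-transport genes did not pass against the pool. Of 10 tested genes of this list, 1 was higher (Slc12a1) and 0 lower, with a median difference of 1.10 beside -0.53 for all genes, and 4 passed as higher after quantile normalization. Kcnj1, the luminal potassium channel, had 0.825, 5.10 and 19.1 RPKM in mTAL (lowest, median, highest) and a difference of 1.22 ± 0.50 (log2; limma adjusted p = 0.211). Fxyd2, a small regulator of the sodium pump, was among the most abundant transcripts, with a mean of 7115 ± 4537 RPKM in mTAL (SD, n = 7). Its difference of 1.35 ± 0.433 did not pass (limma adjusted p = 0.0883).

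Of 14 tested acid-base and ammonium genes, 0 were higher and 2 lower, Rhbg and Rhcg, the ammonia channels of the distal nephron, and 0 were lower after quantile normalization, where 2 were higher. Rhcg stayed at or below 0.644 RPKM in every mTAL library, and its CCD mean was 293.5 RPKM. Slc9a3, the sodium-proton exchanger NHE3, had a median of 4.04 RPKM in mTAL and a difference of 1.43 (limma adjusted p = 0.285). The 13 tested kinases and regulators of salt transport included both protein phosphatase 1 inhibitors on the high side and Sgk1, a kinase induced by aldosterone, on the low side (-2.95 ± 0.808, log2; limma adjusted p = 0.0319), with 0 lower after quantile normalization. Stk39, which encodes the kinase SPAK that acts on NKCC2, had a median of 2.93 RPKM in mTAL and a difference of -0.38 (limma adjusted p = 0.741).

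Other genes of the Igf1 pathway were not called against the pool. Of 19 tested genes of the insulin-like growth factor axis, 1 was higher (Igf1 itself) and 0 lower, and their median of -0.37 was near that of all genes. Igf1r, the IGF-1 receptor, reached at most 1.03 RPKM in mTAL, and Insr, the insulin receptor, at most 2.28 RPKM. Igfbp5, a binding protein, had 4.26, 34.7 and 88.9 RPKM in mTAL (lowest, median, highest), against 55.2, 234 and 409 RPKM in cTAL, and a difference of -0.13 from the 13 segments (log2; limma adjusted p = 0.924). Relative to DCT, Igfbp5 fell by 3.91 ± 1.12 (limma adjusted p = 0.0292).

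Of 9 tested genes of the EGF receptor axis, Egf and Erbb4 were higher and 0 lower. Egf, a precursor that distal cells shed into urine, had only 0.200, 2.48 and 5.45 RPKM in mTAL, against 0.638, 5.69 and 36.8 RPKM in cTAL, and was 1.03 ± 0.280 higher than in the 13 segments (log2; limma adjusted p = 0.0312). Erbb4, a receptor tyrosine kinase, was at 0 in 2 mTAL libraries and reached 7.69 RPKM (1.24 ± 0.309; limma adjusted p = 0.0155), but its mTAL mean in the second table, made without polyadenylation-site data, was 0.000475 RPKM.

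Genes of energy metabolism were mostly above the median of all genes, with few calls. The part of their abundance in this was not tested. Of 56 tested oxidative phosphorylation genes, 0 passed in either direction against the 13 segments, yet 51 had a difference above 0 and their median was 0.66 beside -0.53 for all genes. With quantile normalization 9 passed, all higher. For the tricarboxylic acid cycle the median was 0.39 with 0 of 23 called, and for fatty acid and ketone oxidation it was 0.79 with 1 of 21 called. After quantile normalization 1 and 6 of these were higher. The gene called without that normalization was Cpt1b, the muscle-type carnitine palmitoyltransferase (2.18 ± 0.501, log2; limma adjusted p = 0.00646), at 0 to 43.5 RPKM in mTAL with a median of 17.0 RPKM.

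Of 20 tested glycolysis genes, 2 were higher and 0 lower, with a list median of -0.25, and 4 were higher after quantile normalization. Ldhb, the lactate dehydrogenase subunit of oxidative tissues, had 145, 610.4 and 1113 RPKM in mTAL (lowest, median, highest) and differed by 3.00 ± 0.813 (log2; limma adjusted p = 0.0295). Its DCT mean was higher, at 1539 RPKM. Slc16a7, the lactate and pyruvate carrier MCT2, differed by 2.66 ± 0.621 (limma adjusted p = 0.00758), with mTAL values of 0.499, 28.2 and 82.3 RPKM. Mpc1, a subunit of the mitochondrial pyruvate carrier, was highest in mTAL of all segments by its mean, 2214 ± 1599 RPKM (SD, n = 7), though its difference of 1.5 did not pass (limma adjusted p = 0.186). Ckb, the brain-type creatine kinase, had a median of 320.3 RPKM in mTAL and 30.5 RPKM in cTAL and also missed (2.49 ± 0.848 against the 13 segments; limma adjusted p = 0.114).

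**Figure D3:**
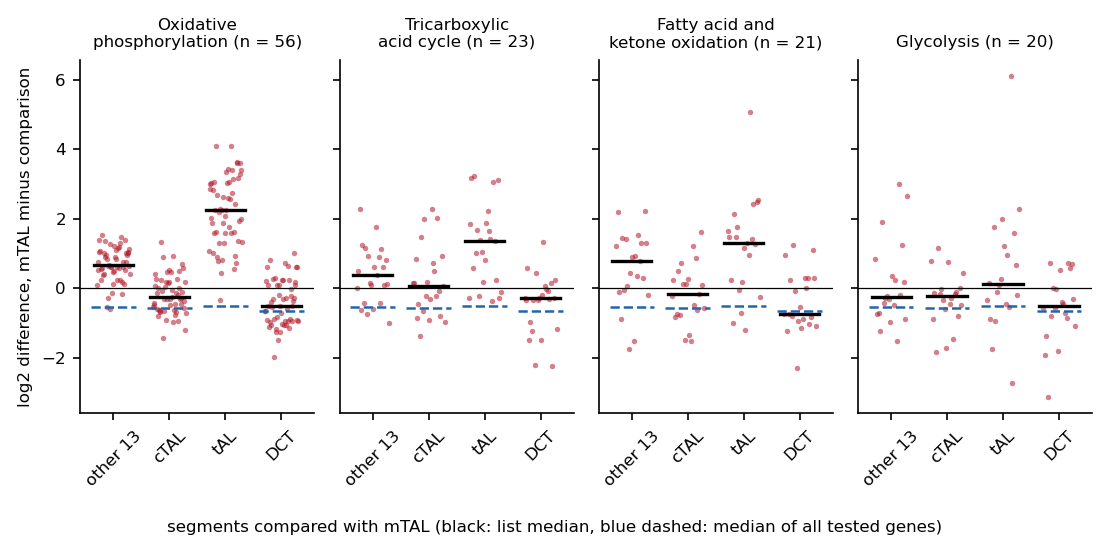
Log2 differences between mTAL and 4 comparisons (the mean of the 13 other segments, cTAL, tAL and DCT) for the tested genes of 4 energy lists. Points are genes, black lines list medians, and blue dashed lines the median of all tested genes. Oxidative phosphorylation genes lie highest against tAL, where their median is 2.25, and their medians are -0.26 against cTAL and -0.50 against DCT.

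Among the 15 most abundant transcripts of mTAL, whose means ran from 998 to 10671 RPKM, 5 encode oxidative phosphorylation subunits, among them Atp5b and Cox4i1. Fth1, the ferritin heavy chain, averaged 4935 ± 3699 RPKM and Ubb, a ubiquitin gene, 2142 ± 1269 RPKM (SD, n = 7). Of these 15, 4 averaged at most 24.4 RPKM in mTAL in the second table, Myl6l, Mrpl1 and Impad1 among them, so their rank holds for the first table alone.

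Cd74, RT1-Da and RT1-Ba, which serve antigen presentation by MHC class II, were higher in mTAL. Cd74, the invariant chain, had 326, 632 and 979 RPKM in mTAL (lowest, median, highest), against 324, 543 and 783 RPKM in cTAL, and was 3.83 ± 0.913 higher than in the 13 segments (log2; limma adjusted p = 0.00945). RT1-Da, a class II alpha chain of the rat, had 28.4, 222 and 695 RPKM in mTAL, against 0.0730, 90.7 and 129.5 RPKM in cTAL, and was 5.39 ± 0.764 higher (limma adjusted p = 1.79e-07). RT1-Ba, another alpha chain, had 3.35, 96.3 and 136 RPKM in mTAL and was 3.27 ± 0.758 higher (limma adjusted p = 0.00700). Mean RT1-Da was highest in mTAL, while the highest Cd74 mean was in S2, at 883 RPKM.

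The beta chains, read after these values were seen, did not pass. RT1-Db1 had 0.833, 19.98 and 248 RPKM in mTAL (1.67; limma adjusted p = 0.293) and RT1-Bb 0.0254, 9.96 and 63.6 RPKM (0.58; limma adjusted p = 0.583). These genes belong to a multigene family in which reads can be split between copies, so the values of single chains are uncertain. Ciita, the class II transactivator, was at 0 in 6 mTAL libraries and at 0.571 RPKM in the other. It was also at 0 in every DCT library and at most 0.381 RPKM in cTAL, so its low level does not set mTAL apart.

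Transcripts of leukocytes were measured beside these genes. The 12 leukocyte markers, Cd74 included, summed to 431.5 to 1240.3 RPKM in mTAL, 351 to 1137 RPKM in cTAL and 0.116 to 2613 RPKM over all 98 other libraries. In mTAL 10 of the 12 had a median under 1 RPKM, and Ptprc (CD45) and Cd3e were at 0 in all 7 libraries. Ptprc was also at 0 in every tAL library and in cTAL replicates 4, 5 and 6, so a 0 does not set mTAL apart. Tyrobp, one of those 10 markers, held 33.7 RPKM in mTAL replicate 3 and 41.5 RPKM in replicate 5. Lyz2, lysozyme of myeloid cells, ran from 0 to 858 RPKM with a median of 24.6 RPKM. C1qa, a complement gene of macrophages, had a median of 0 in mTAL and 25.3 RPKM in cTAL and relative to cTAL fell by 3.67 ± 0.933 (log2; limma adjusted p = 0.0216). The part of leukocytes in the class II values was not tested.

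**Figure D4:**
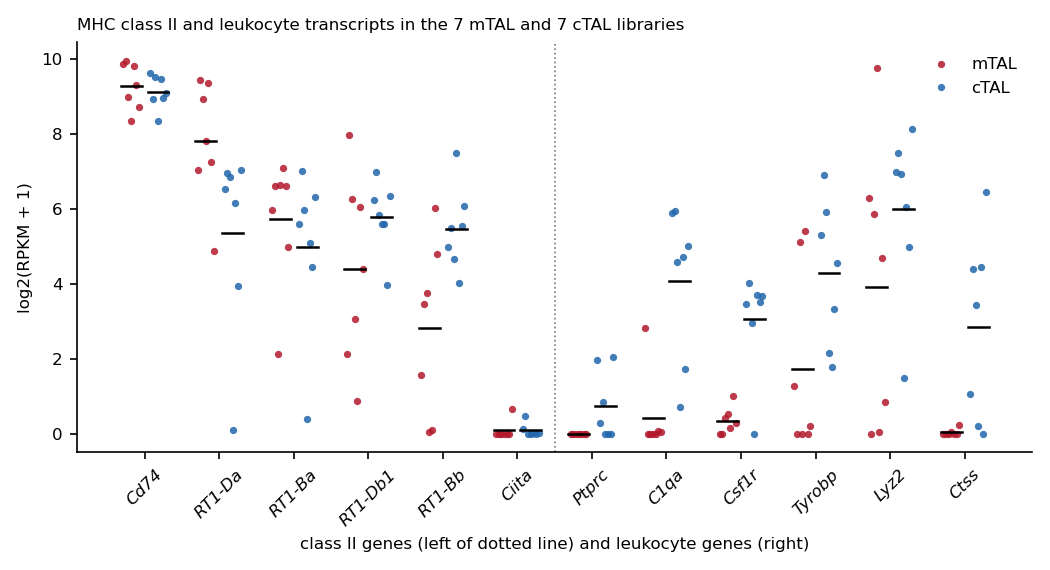
MHC class II genes and leukocyte genes in the 7 mTAL and 7 cTAL libraries, as log2(RPKM + 1), with lines at the means of the log2 values. Cd74 and RT1-Da are high in mTAL. Ptprc is at 0 in all 7 mTAL libraries and also in cTAL replicates 4, 5 and 6. C1qa exceeds 1 RPKM in 1 mTAL library.

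Cnn3 and Ctsh had the largest differences on the low side against the 13 segments. Cnn3, an actin-binding calponin, had 0, 2.14 and 11.2 RPKM in mTAL, against 0, 163 and 1191 RPKM over the 98 other libraries, and differed by -4.88 ± 0.835 (log2; limma adjusted p = 4.38e-05). Ctsh, the lysosomal protease cathepsin H, had 0.203, 8.56 and 124 RPKM in mTAL, against 2.38, 335 and 5221 RPKM elsewhere (-4.73 ± 0.683; limma adjusted p = 3.05e-07). For Cnn3 and Ctsh mTAL had the lowest mean of the 14 segments, but its libraries overlapped the others. Atp6ap2, the prorenin receptor, differed by -4.31, Cndp2, a cytosolic dipeptidase, by -4.18, Folr1, the folate receptor, by -3.91 and Krt18, a keratin of simple epithelia, by -3.79, each of them called on the log2 scale and still called after quantile normalization. Of the 129 lower genes, 76 had their lowest segment mean in mTAL, and 102 had no mTAL library above the mean of the 13 segments.

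Several markers of other tubule cells were lower too. Of 18 tested proximal tubule markers 5 were lower and 0 higher, of 8 principal cell markers 4 were lower and 0 higher, and of 12 intercalated cell markers 3 were lower and 0 higher. After quantile normalization the lower counts were 1, 0 and 0, and 1 proximal marker was higher. Of 8 thin limb markers 1 was lower, Aqp1, with 0.0946, 0.263 and 24.9 RPKM in mTAL and an LDLIM mean of 3629 RPKM. Summed proximal tubule markers ran from 59.6 to 1705 RPKM in the 7 mTAL libraries, highest in replicate 3, beside an S2 median of 24483 RPKM. Summed red blood cell markers were 0 in 4 mTAL libraries and 1309 RPKM in replicate 5. Their part in other results was not tested.

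Of 14 tested osmotic response genes, 0 were higher and 2 lower (Sgk1 and Aqp1), with a median of -1.14, and of 18 hypoxia response genes 0 were higher and 2 lower, with a median of -1.03, both beside -0.53 for all genes; after quantile normalization 0 and 1 were lower. The lower hypoxia genes were Bnip3l and Ndrg1, the second at 1.17, 5.93 and 25.2 RPKM in mTAL (-3.36 ± 0.725, log2; limma adjusted p = 0.00289). Of 22 tested immediate early and heat shock genes 0 passed, and likewise 0 of 16 genes of protein folding in the endoplasmic reticulum.

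The cortical part of the same limb was the closest relative. Between mTAL and cTAL, 4 of 11078 genes (0.0361%) were higher in mTAL and 110 (0.993%) lower, with a median difference of -0.55 over all genes. After quantile normalization the counts were 10 and 49 and the median was 0.03, so higher calls made up 17.0% there, against 3.51% on the deposited scale. Medullary tissue was digested for 50 min and cortex for 25 min, so place and digestion time cannot be told apart here.

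Igf1, Ppp1r1b and Cryab were 3 of the 4 higher genes, and the fourth, Matn1, had only 3 of 7 mTAL libraries above the mean of the 13 segments. Igf1 was higher in mTAL than in cTAL by 2.09 ± 0.276 (log2; limma adjusted p = 2.94e-08), with 5 of 7 mTAL libraries above every cTAL library. The adjusted p was 0.189 when both groups were fitted alone, and 0.328 in the 3 mTAL and the cTAL libraries of greater depth. An exact two-sided permutation test over the 14 libraries gave p = 0.00758 (0.0166 adjusted over the 3 tests). Ppp1r1b was 2.36 ± 0.634 higher (limma adjusted p = 0.0355), with 4 of 7 mTAL libraries above every cTAL library. Fitted alone it also lost the call (limma adjusted p = 0.167), and the exact permutation test gave p = 0.0256, also 0.0256 after adjustment.

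Cryab, a small heat shock chaperone, had 9.73, 81.6 and 326 RPKM in mTAL, against 0.132, 1.70 and 60.1 RPKM in cTAL, with 3 cTAL libraries above the lowest of mTAL. It was 3.96 ± 0.904 higher (log2; limma adjusted p = 0.00567) and 4.38 ± 0.875 higher than in DCT (limma adjusted p = 0.000363). The tAL mean was 7225 RPKM, and against tAL Cryab fell by 5.74 ± 0.904 (limma adjusted p = 3.97e-06). Its level in mTAL thus lay between those of its neighbours.

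Casr, Pth1r and Cldn16 were lower in mTAL than in cTAL. Casr, the calcium-sensing receptor, had 0.659, 7.38 and 66.2 RPKM in mTAL, against 15.9, 332 and 546 RPKM in cTAL, and fell by 4.58 ± 0.705 on the log2 scale (limma adjusted p = 2.53e-06). Pth1r, the parathyroid hormone receptor, had 0, 1.05 and 7.68 RPKM in mTAL, against 4.59, 132 and 269 RPKM in cTAL, and fell by 5.37 ± 0.897 (limma adjusted p = 1.99e-05). Cldn16, the claudin of paracellular magnesium transport, had 0.0126, 9.19 and 164 RPKM in mTAL, against 107, 129 and 188 RPKM in cTAL, and fell by 4.03 ± 0.814 (limma adjusted p = 0.000844). For each of the 3 the groups overlapped, with 3, 1 and 1 mTAL libraries above the lowest cTAL library, and for Cldn16 that library was replicate 2. Casr and Pth1r were the 2 called of 23 receptors.

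Ptgs2, which encodes cyclooxygenase 2, was at 0 in 6 mTAL libraries and at 0.00633 RPKM in the seventh, against 0, 28.6 and 241 RPKM in cTAL, and fell by 3.59 ± 0.476 on the log2 scale (limma adjusted p = 2.94e-08). That SE rests on all 14 segments, in most of which Ptgs2 was near 0, and does not measure the spread within mTAL and cTAL alone. Ptgs2 was 1 of 4 lower genes among 16 secreted and luminal proteins, with Fgf9, a growth factor, and Kng1 and Kng2, the kininogens, while 1, Igf1, was higher. Wnk1, a kinase that controls salt transport, had 0.0131, 1.15 and 53.1 RPKM in mTAL, against 4.65, 51.6 and 224 RPKM in cTAL, and fell by 3.92 ± 0.881 (limma adjusted p = 0.00441). Only mTAL replicates 1 and 2 lay above the lowest cTAL library.

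The largest falls by the naming rule also included Car15, a membrane-bound carbonic anhydrase (-5.93 ± 1.08; limma adjusted p = 0.000138), Tmem52b (-4.92 ± 0.784; limma adjusted p = 6.70e-06) and Ush1c, the scaffold protein harmonin (-4.70 ± 0.944; limma adjusted p = 0.000820). Ush1c did not exceed 0.219 RPKM in any mTAL library, below the lowest cTAL library at 6.43 RPKM, so those groups did not overlap. Among the 56 oxidative phosphorylation genes 0 were called between the 2 parts, at a median of -0.26 beside -0.55 for all genes. Of 10 salt-transport genes 0 were called as well, but their median was lower, at -1.49 beside -0.55. After quantile normalization the salt-transport median was -0.87 beside 0.03 for all genes, again with 0 called.

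**Figure D5:**
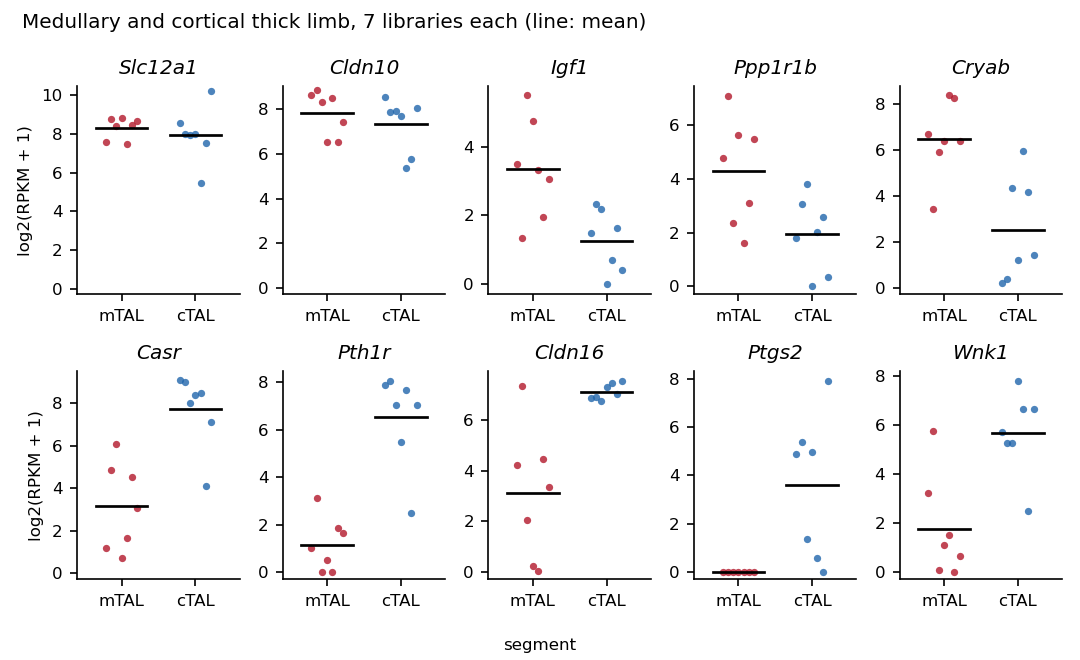
Values of 10 genes in the 7 mTAL and 7 cTAL libraries, as log2(RPKM + 1), with lines at the means of the log2 values. Slc12a1 and Cldn10 overlap widely, Igf1, Ppp1r1b and Cryab are higher in mTAL, and Casr, Pth1r, Cldn16, Ptgs2 and Wnk1 are lower in mTAL with 1 or more mTAL libraries inside the cTAL range.

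Next to the thin ascending limb, where the long loop turns from thin to thick epithelium, mTAL differed in more genes. Of 11078 genes, 114 (1.03%) were higher in mTAL than in tAL and 588 (5.31%) lower, with a median difference of -0.51. After quantile normalization the counts were 345 and 386, 47.2% of them higher, against 16.2% on the deposited scale. Slc12a1, Umod, Ppp1r1a, RT1-Da, Ldhb and Cd74 led the higher side, with differences of 6.18, 9.27, 6.35, 6.68, 6.10 and 5.61 on the log2 scale.

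Of 56 tested oxidative phosphorylation genes 22 were higher in mTAL and 0 lower, with a median of 2.25 beside -0.51 for all genes, and 55 of 56 lay above 0. After quantile normalization 38 were higher. Atp5g3, a subunit of the membrane part of ATP synthase, was 3.17 ± 0.613 higher (log2; limma adjusted p = 0.000254) and Atp5e 3.63 ± 0.756 higher (limma adjusted p = 0.000697). Etfb, which passes electrons from fatty acid oxidation to the respiratory chain, was 5.07 ± 1.10 higher (limma adjusted p = 0.00137), and Ckb 4.16 ± 1.16 higher (limma adjusted p = 0.0157). Kcnj1 and Fxyd2 were higher than in tAL as well, by 2.43 ± 0.682 (limma adjusted p = 0.0170) and 2.32 ± 0.591 (limma adjusted p = 0.00705).

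On the lower side, 8 of 14 tested osmotic response genes passed and 0 were higher, at a median of -2.79 beside -0.51 for all genes, and 4 passed after quantile normalization. Akr1b1, the aldose reductase that makes sorbitol, had 0.103, 23.9 and 291 RPKM in mTAL and a tAL mean of 6939 RPKM, and fell by 7.09 ± 1.35 on the log2 scale (limma adjusted p = 0.000187). Nfat5, the transcription factor of the tonicity response, fell by 4.16 ± 0.794 (limma adjusted p = 0.0002). S100a6, a calcium-binding protein, and Clu, the secreted chaperone clusterin, fell by 6.95 ± 1.21 and 6.56 ± 1.21. Of 22 immediate early and heat shock genes 6 were lower in mTAL, Fosb and Atf3 among them, and 0 higher, with 4 lower after quantile normalization. Markers of other cell types moved in the same comparison. Of 12 endothelial markers 3 were lower in mTAL, Cdh5, Flt1 and Tek, and 0 higher, at a median of -1.60, with 3 lower also after quantile normalization. Their summed level ran from 0.0518 to 134 RPKM in mTAL libraries and from 5.72 to 9000 RPKM in tAL libraries, and Slc14a1 was listed at 0 in all 7 mTAL libraries. Of 8 thin limb markers 5 were lower, Akr1b1 and Aqp1 among them, and the sum was 81.5 to 487 RPKM in mTAL against 1440 to 34736 RPKM in tAL. The part of either in the lower genes was not tested. The labels give outer medulla a digestion of 50 min and inner medulla one of 90 min, so place and digestion time cannot be told apart in this comparison either.

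Against the distal convoluted tubule, the next mitochondria-rich segment downstream, 16 of 11078 genes (0.144%) were higher in mTAL and 343 (3.1%) lower, with a median difference of -0.64. After quantile normalization 87 were higher and 134 lower, so higher calls made up 39.4% there, against 4.46% on the deposited scale. Slc12a3, the thiazide-sensitive cotransporter that marks DCT, had 0, 0 and 0.998 RPKM in mTAL (lowest, median, highest) and a DCT mean of 267 RPKM, and fell by 7.57 ± 0.478 on the log2 scale (limma adjusted p = 2.26e-26). Klk1c7 and Klk1, kallikrein proteases, fell by 7.79 ± 0.867 and 6.83 ± 0.975, and Wnk1 by 5.97 ± 0.853 (limma adjusted p = 1.15e-07). Kcnj10, the basolateral potassium channel of DCT, fell by 3.90 ± 0.658 (limma adjusted p = 1.10e-05).

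On the higher side against DCT stood Cldn10, Slc12a1, Plau, Cryab, Gadd45g and Egr1. Plau, the urokinase, had 10.9, 52.7 and 201 RPKM in mTAL and was 4.53 ± 1.07 higher (log2; limma adjusted p = 0.00425). Egr1, an immediate early gene, was 3.57 ± 0.956 higher (limma adjusted p = 0.0161), but the difference was -0.038 in the second table. Of 56 oxidative phosphorylation genes 0 differed, with a median of -0.50 beside -0.64. Digestion lasted 50 min for outer medulla and 25 min for cortex here also.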

How the data were processed

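Tubule segments were picked by hand from collagenase-digested rat kidney, and RNA was sequenced with a single-cell protocol, per the labels' protocols. Per the submitters' processing notes, the tools were HOMER, SAMtools, STAR 2.3.0-r192 and Trimmomatic 0.32, and the genome was rn5. The authors deposited RPKM values per RefSeq transcript in a table made with polyadenylation-site data, used here, and in a second table made without it, used as an alternative. The sources used here do not say how that data entered. From 17974 transcript entries the one with the highest mean stood for each of 17144 gene symbols, of which 503 had more than 1 entry. No read counts were used. Depth is relative, read from the steps of low RPKM values in 5 reference libraries, and 103 tubule libraries had 3 or more references in agreement. It spanned 14.2-fold, with 4 mTAL libraries under 2.

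Values were taken as log2(RPKM + 1), and 11078 symbols that reached 1 RPKM in 4 or more libraries were tested with limma 3.58.1 in R 4.3.3, with a trended prior variance and 1 mean for each of 14 segments. The mTAL mean was set against the unweighted mean of the 13 other segment means, and against cTAL, tAL and DCT. A gene was called at a Benjamini-Hochberg adjusted p under 0.05 over all tested genes and a log2 difference of at least 1. Errors beside differences are SE. In the fit of all tubule libraries they rest on 1 variance per gene over all 14 segments. For genes near 0 in most segments, such as Igf1 and Ptgs2, SE and p can understate the scatter of the 2 groups compared. The trended prior also draws on genes of like level, so p can understate the scatter of a single gene in fits of 2 groups alone. Samples of glomerulus (5), water-load collecting ducts (8) and whole kidney (7) were left out, and the 2 tables held 10 columns not used. No columns were identical. The procedure was run on simulated data with normal noise and 1 spread per gene over all segments. That setting does not test genes near 0 in most segments.

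Members and gene lists were chosen with earlier results of these data known, and no list count is independent support. Of 470 listed genes in 30 lists, 459 were in the table and 429 were tested. Named genes were the listed ones, the 15 largest positive and 10 largest negative called differences against the 13 segments with at least 6 of 7 mTAL libraries on the called side, the 15 most abundant in mTAL, the selective and shared genes, and up to 8 called genes each way against cTAL and 6 against tAL and DCT. Some genes that the rule names are not reported here. RT1-Bb, RT1-Db1, Ciita and Matn1 were added after their values were seen. Alternatives covered the pseudocount, the filter, quantile normalization, the second table, covariates for detected genes and depth, library subsets and leaving out each mTAL library. Scripts ran in Python 3.11.15 with pandas 2.3.3, numpy 2.4.6 and matplotlib 3.10.9. Replicate numbers were not taken as pairs in the main fit, and a replicate block was an alternative. Same-numbered mTAL and cTAL pairs correlated at r = 0.00473 to 0.329. Relative depth was 3.97, 4.33 and 3.98 in cTAL replicates 1, 2 and 3. It was 0.705, 0.658, 0.723 and 1.45 in cTAL replicates 4, 5, 6 and 7, an order much like that in mTAL. Whether same-numbered libraries shared a rat or a run was not tested.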

Additional observations from a re-analysis of the deposited data

Results flagged for a closer look

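Among 87 named genes, 18 had 1 mTAL library far from the other 6 on the log2 scale, by a gap to the nearest library above Dixon's critical share of the whole range. For normally distributed values, chance would give this in about 1 in 20 genes. That rate cannot be applied here, because some genes lay near the lower limit of the scale. For Cwh43, Gatm and Pck1 the other 6 libraries held at most 0.0196, 0.0414 and 0.0212 RPKM. Of the 18 values, 16 were the highest of their gene. Many of the 87 genes were also named by their values in these data. Whether 18 exceeds chance was thus not tested. Replicate 2 accounted for 7 of the 18. It held the highest value for Aqp3 (4.27 RPKM), Aqp4 (0.559 RPKM), Aqp6 (0.818 RPKM), Atp6v1b1 (7.59 RPKM), Gata3 (1.43 RPKM), Rhcg (0.644 RPKM) and Tmem52b (266.6 RPKM). Aqp3 and Aqp4 are water channels of principal cells, and Aqp6, Atp6v1b1 and Rhcg belong to intercalated cells. Replicate 2 also had the highest summed principal cell markers (259.8 RPKM) and intercalated cell markers (584.7 RPKM) of the 7 libraries, and their part in these values was not tested.

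Replicate 4 held 5 of the 18, with Klk1, a kallikrein, at 57.9 RPKM against at most 0.215 RPKM in the other mTAL libraries, Cwh43 at 0.180 RPKM, Fbp1 at 0.238 RPKM, Pck1 at 0.400 RPKM and Ush1c at 0.219 RPKM. Replicate 6 held the highest Cndp2 (7.90 RPKM) and Prr15 (25.4 RPKM), replicate 1 the highest Gatm (0.112 RPKM) and replicate 7 the highest Klk1c7 (1.13 RPKM). Both low values were in single libraries, RT1-Ba at 3.35 RPKM in replicate 3, where the others held at least 30.6 RPKM, and Slc16a7 at 0.499 RPKM in replicate 5, where the others held at least 14.2 RPKM.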

How the results depend on the processing

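The count of calls was 178 against the 13 segments (49 higher, 129 lower), 114 against cTAL, 702 against tAL and 359 against DCT. With libraries of at least 2500 genes it was 116 against the 13 segments (45 higher, 71 lower), with equal weight per library 32 (16 higher, 16 lower), and with the number of detected genes as a covariate the split was 81 higher and 58 lower. Leaving out each mTAL library in turn gave 100 to 165 (100 without replicate 5). A pseudocount of 0.1 gave 193 (cTAL) and 589 (DCT), quantile normalization 59 and 221, and the number of detected genes as a covariate 56 and 172. Fitted alone, cTAL gave 52 and tAL 154. Splits by depth, chosen after seeing the data, gave 12 (13 segments, 12 higher, 0 lower), 42 (cTAL) and 25 (DCT) at a relative depth of at least 2, and 33 (16 higher, 17 lower), 24, 132 (tAL) and 171 (DCT) under 2. At greater depth tAL had 0 libraries, S1, SDL, LDLIM, CNT and IMCD had 1 each, and the pool was 12 segments, a different contrast. The joint rule over 13 segments gave 1 gene, 2 after quantile normalization and 0 at greater depth. Over the segments other than cTAL it gave 3, and 0 at greater depth. Over those segments it gave 2 with a pseudocount of 0.1 and without mTAL replicate 2, 4, 6 or 7. It gave 4 after quantile normalization and with libraries of at least 2500 genes. The 0 counts say nothing about stability in a set so small. With each comparison adjusted on its own, 2 and 5 genes passed. With the replicate block the counts were 183, 116, 756 and 397, and 1 and 3 for the joint rules. Among 87 named genes 1 call, Bnip3l, was lost (-2.70; limma adjusted p = 0.0514). In no segment did every same-numbered pair correlate above 0.1. In LDLOM, cTAL and DCT 2 of 7 pairs did, at up to 0.437, 0.329 and 0.244, and 1 pair did in each of S1, S2 and CNT. Pairs of unlike number were not compared, so these values do not settle whether numbers pair libraries.

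Of 22 named genes higher against the 13 segments, Cldn10, Igf1, Ppp1r1a, RT1-Da, Slc12a1 and Umod were called in all 20 settings run, and 0 of 33 lower ones were. Some differences from the 13 segments changed sign. Mrpl1 gave 0.80 after quantile normalization, 0.48 in the second table and 0.30 at greater depth. At greater depth, where tAL with its high Akr1b1 was absent, Akr1b1 gave 1.64, Tmem52b 1.01 and Wnk1 0.46. At lesser depth Ubb gave -0.089, Cox4i1 -0.36 and Fth1 -0.36. Fth1 gave -0.13 with detected genes as a covariate and -0.17 to 0.40 leaving out single libraries, and Ubb -0.021 to 0.45. Egr1 gave -1.29 in the second table, and -0.038 there against DCT. The causes were not tested. What depth limits in single mTAL libraries was not tested.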
